A study of Homo sapiens with 6 samples.

Results

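The baseline transcriptome of control MDA-MB-231 cells is described from the 2 libraries infected with sh-TRC, the control, out of 6 libraries in the series. MDA-MB-231 is an established human triple-negative breast cancer (TNBC) cell line. Its cells received the lentiviral sh-TRC control vector, which the labels give as genotype Knockdown TRC, and RNA was taken from whole cultures. The replicates are named CTR1 and CTR2. The other 4 libraries carried shRNAs against the lncRNA MIR100HG and are not analysed here, so each level below holds for infected cells and no uninfected culture is beside it. The labels give no culture, passage or date that would separate the replicates, and the spread between them may be partly technical.

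TNBC lacks the estrogen and progesterone receptors and has no amplified HER2, the product of ERBB2. MDA-MB-231 is known as a mesenchymal-like TNBC line with an active RAS-MAPK pathway and a strong secretory output, and it is a common model of invasion. Levels are given as TPM, the usual per-length unit of RNA-seq, which is the reads of a gene divided by its length and scaled to the same total in each library, so genes can be compared per length within a library. Where a pair of values is given, CTR1 comes first and CTR2 second (n = 2). RNA came from bulk cultures, in which a low level in all cells and a high level in few cells cannot be told apart.

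The libraries held 50292065 and 58410375 counts over 27745 genes, of which 19595 were protein-coding and 7252 were lncRNA genes by the annotation. At this depth 3 counts on a gene of median length were 0.0757 TPM in CTR1 and 0.0649 TPM in CTR2, and these limits cover counting error only. A gene was called detected at 1 TPM or more in both replicates. That held for 12695 genes, which is 45.8% of all genes, for 61.0% of the protein-coding genes (11961) and for 8.48% of the lncRNA genes (615). The 61.0% is the background for the detected shares of the protein-coding gene lists below. Those lists were chosen with earlier results of these data known. No read fell in either library on 3055 protein-coding genes (15.6%) or on 4315 lncRNA genes (59.5%).

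**Figure D1:**
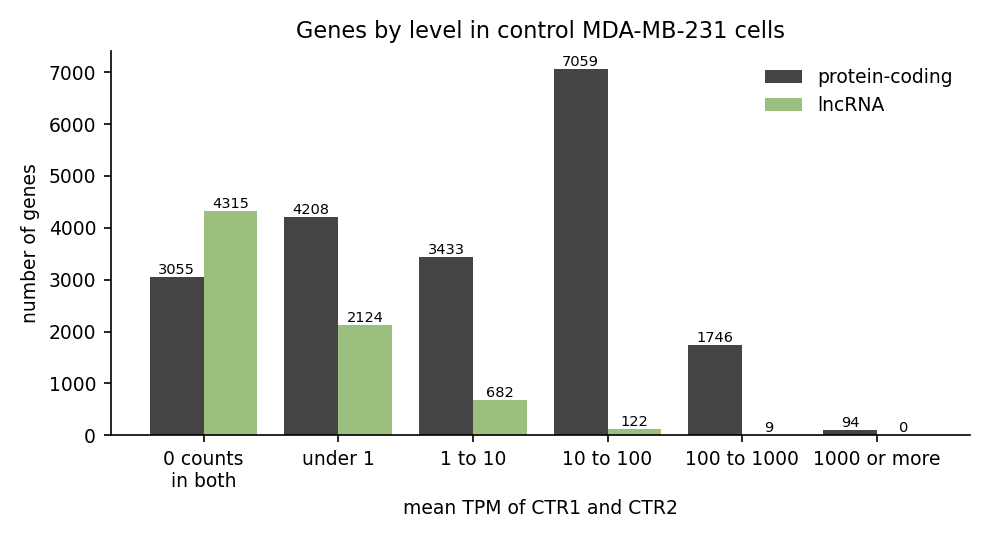
Number of protein-coding and lncRNA genes (bars, counts on a linear axis) by mean TPM of CTR1 and CTR2. The largest protein-coding class is 10 to 100 TPM with 7059 genes, and 94 protein-coding genes reach 1000 TPM or more, where none of the lncRNA genes counted lies.

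Measured per length, RNA output was concentrated in few genes. The 100 highest genes held 30.6% of the TPM in CTR1 and 29.7% in CTR2, 30.1% ± 0.632 (SD, n = 2), while the same share of counts, not divided by length, was 16.8%. The 94 genes at a mean of 1000 TPM or more held 29.4% of all TPM, and the 1756 genes from 100 to 1000 TPM held 42.1%. The lncRNA genes counted together held 0.812% in CTR1 and 0.626% in CTR2, and several known lncRNAs named below were not among them. The 4239 genes from 1 to 10 TPM held 1.80%, so the many low genes added little to the RNA of the cells.

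Before the individual programs are given, one difference between the libraries bears on every statement about silence. Among protein-coding genes, 82 lay under 0.1 TPM in CTR1 and at 1 TPM or more in CTR2, against 6 the other way round. In 46 of the 82 CTR1 had no read at all, while CTR2 had a median of 105 counts. Their levels were low, with a median of 1.82 TPM in CTR2, and together they took 0.0215% of its counts. KIT, the stem cell factor receptor, had 0 counts in CTR1 and 422 in CTR2. GATA1, an erythroid transcription factor, had 0 and 113 counts. CYP2B6, a liver drug-metabolising enzyme, had 0 and 155 counts. Seen after the values were known, the 82 genes, 0.418% of the protein-coding genes, included 10 of 58 receptor tyrosine kinases, 9 of 56 cytochrome P450 genes, 5 of 17 UGT genes and 4 of 22 fibroblast growth factor genes. Of the UGT genes 4 belong to UGT1A and share 49.9% to 63.9% of their exon bases with other genes, so they are not separate cases. The highest of the 82, AC012360.1, rested on 3 counts. The 6 genes of the reverse kind were KRT6A with 156 and 2 counts, KRT5 with 96 and 4, CD69 with 72 and 4, and 3 short genes without a symbol of their own, AL590560.1, AL161645.2 and AC018630.1, which had 15, 2 and 6 counts in CTR1 and 0 in CTR2. What set these genes apart was not tested, nor whether these reads came from the cells of CTR2. That limit holds for every low CTR2 value of a gene near 0 or low in CTR1, such as KIT, ESR1, ALK, RET and CDKN2A, and silence is stated below only where both libraries bear it.

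**Figure D2:**
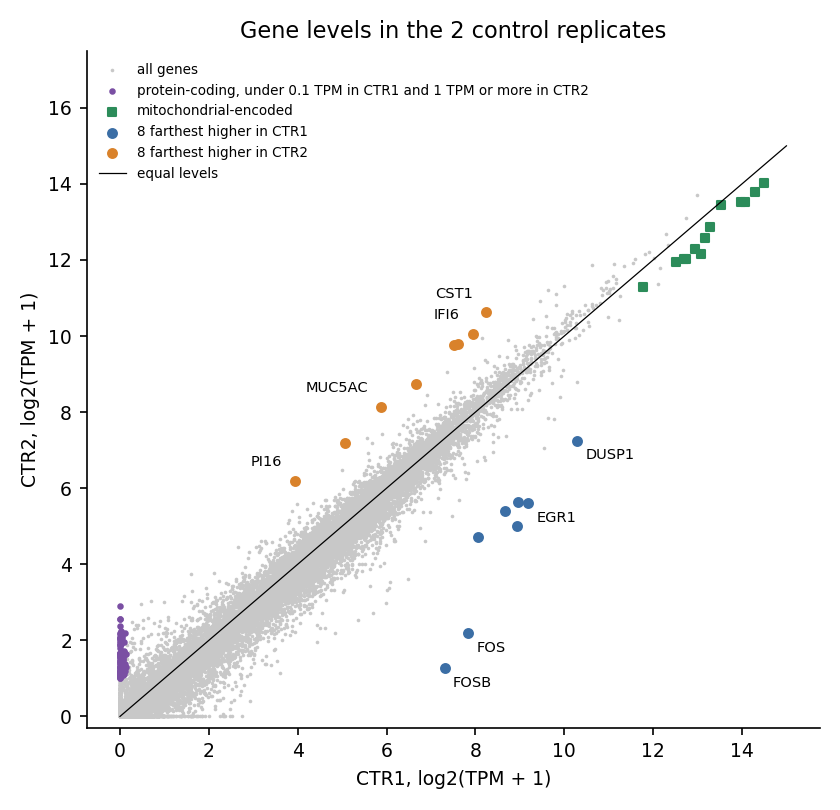
Each point is a gene, with log2(TPM + 1) in CTR1 on the horizontal axis and in CTR2 on the vertical axis, and the line marks equal levels. Mitochondrial-encoded genes lie under the line, FOS and FOSB lie farthest from it, and the 82 protein-coding genes seen almost only in CTR2 form a column at the left edge.

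The mitochondrial genome encodes 13 subunits of the respiratory chain and ATP synthase. All 13 were detected, and they took 14.7% of the TPM in CTR1 and 10.3% in CTR2 and 3.46% and 2.41% of the counts. MT-CO2, a cytochrome c oxidase subunit, was the highest at 23261 and 16708 TPM. MT-CO1 followed at 20143 and 14150 TPM. MT-ATP8, a small ATP synthase subunit, was the lowest at 3508 and 2509 TPM. Each of the 13 lay lower in CTR2, with a median log2 ratio of CTR2 over CTR1 of -0.55, computed as log2 of (TPM + 1).

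Outside the mitochondrial genome the highest gene was S100A6, a calcium-binding protein, at 8099 TPM in CTR1 and 13499.5 TPM in CTR2. Actin handling followed directly. TMSB10, a thymosin that binds actin monomers, stood at 6788 and 8831 TPM. ACTB, cytoplasmic beta-actin, stood at 4985 and 6601 TPM, and TMSB4X, the related thymosin, at 5150 and 5349 TPM. The glycolytic enzyme GAPDH came next at 3839 and 4730 TPM, then the elongation factor EEF1A1 at 4152 and 4210 TPM. IGFBP4, a secreted protein that binds insulin-like growth factors, reached 3630 and 4591 TPM. FTL, the ferritin light chain, reached 4585 and 3506 TPM. Calcium binding, actin, glycolysis, translation and iron storage thus filled the first places.

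The rest of the 25 highest protein-coding genes mixed housekeeping with genes of a defined character. ISG15, a ubiquitin-like protein induced by interferon, stood at 3088 and 4136 TPM. CCN1, a matricellular YAP-TEAD target, stood at 4435 and 2656 TPM. LGALS1 (galectin-1) had 2992 and 3888 TPM, and HMGA1, an architectural chromatin protein, had 2617 and 3687 TPM. KRT81, a hair keratin, had 2230 and 3781 TPM. KRT81 is close in sequence to KRT86, which stood at 32.7 and 48.0 TPM, and how reads with several matches were counted is not stated. The syndecan SDC4 had 2460 and 2126 TPM. Ribosomal proteins (RPS27, RPL8, RPL13A and RPS18), ACTG1, UBB, CALR, ENO1 and HSP90AB1 were among the remaining members.

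Among the lncRNAs counted, MALAT1, a nuclear RNA, was the highest on average, but its levels were 746 TPM in CTR1 and 132 TPM in CTR2. Of 36 lncRNAs looked up, 14 were found among the counted genes. GAS5, SNHG1, TUG1 and RMRP were among those not found, so the order leaves them out and their levels are unknown. SNHG32, a small nucleolar RNA host gene, had 404 and 445 TPM. NORAD, which binds Pumilio proteins, had 260 and 233 TPM. TRIM8-DT followed at 160 and 282 TPM and SNHG8 at 206 and 145 TPM. NEAT1, the scaffold of paraspeckles, had 116 and 23.4 TPM, and TERC, the telomerase RNA, had 20.7 and 2.86 TPM. MALAT1 and NEAT1 were thus both lower in CTR2, while NORAD lay within 1.5-fold. Of the 14 lncRNAs found, 10 were lower in CTR2 and 4 were higher.

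MIR100HG, the lncRNA that the study targeted, spans chr11:121899035-122427429 on the minus strand (GRCh37) and stood at 15.3 and 20.2 TPM in these controls, from 2248 and 3445 counts. Its neighbour BLID, a small gene that lies within its span on the same strand, had 1.31 and 0.748 TPM from 15 and 10 counts. UBASH3B, a phosphatase gene next to it, had 55.0 and 54.4 TPM, and SORL1, a sorting receptor gene, had 5.11 and 6.76 TPM. CDKN1B, which encodes the cell cycle inhibitor p27, stood at 88.3 and 99.8 TPM, and CDKN1A, which encodes p21, at 208 and 242 TPM. CCND1, which encodes cyclin D1, stood at 444 and 412 TPM. CDC25A, the phosphatase that activates CDKs, had 28.4 and 33.4 TPM, CCNF had 19.7 and 28.8 TPM, WEE1 had 18.4 and 19.8 TPM and CDK18 had 1.33 and 1.51 TPM. Of the 13 genes that the study followed, 12 were detected in both replicates, and BLID was the exception.

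The receptor genes followed the triple-negative label. PGR, the progesterone receptor, had no read in either library. ESR1, the estrogen receptor alpha gene, had 0.0551 TPM in CTR1 and 0.662 TPM in CTR2, from 10 and 140 counts. FOXA1, the luminal pioneer factor, had 0.113 and 1.17 TPM, so it passed 1 TPM only in CTR2. ERBB2 stood at 35.1 and 42.7 TPM, a mid-range level. Among nuclear receptors 27 of 48 were detected, led by NR1H2 (LXR-beta) at 87.5 and 131 TPM and by NR3C1, the glucocorticoid receptor, at 112 and 102 TPM.

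Several other luminal genes were detected. GATA3, a luminal transcription factor, had 14.1 and 15.1 TPM. SPDEF, an ETS factor of secretory epithelium, had 112 and 190 TPM, and TFF1, a secreted trefoil peptide best known as an estrogen target, had 58.5 and 170 TPM. The simple-epithelial keratins were high, with KRT19 at 612 and 835 TPM, KRT8 at 429 and 554 TPM and KRT18 at 327 and 411 TPM. In all, 12 of the 17 luminal genes and receptors listed were detected (70.6%), beside 61.0% of all protein-coding genes. The milk and secretory mammary genes were not, with 0 of 7 at 1 TPM and 6 of 7 without a read.

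Basal epithelial genes were split. EGFR, the epidermal growth factor receptor, had 142 and 122 TPM, and FOXC1, a basal-like transcription factor, had 34.2 and 26.3 TPM. ITGB4, an integrin of the hemidesmosome, had 249 and 444 TPM. KRT17 had 44.6 and 18.1 TPM. The stratified keratins KRT5 (1.68 and 0.0601 TPM), KRT14 (2.08 and 0.735 TPM) and KRT6A (4.0 and 0.0440 TPM) were low, and each was higher in CTR1. Of the 25 keratins listed 10 were detected (40.0%), and 6 had no read in either library.

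Epithelial junction genes showed the same division. CLDN4 had 152 and 192 TPM, CLDN7 had 68.2 and 80.5 TPM and the desmosomal DSP had 59.5 and 68.1 TPM. E-cadherin, encoded by CDH1, was low at 1.80 and 4.33 TPM. EPCAM had 15.7 and 8.47 TPM and CLDN3 had 5.72 and 3.29 TPM. Some regulators of epithelial identity were near silent. GRHL2 stood at 0.0744 and 0.0851 TPM, ESRP1, an epithelial splicing factor, at 0.123 and 0.0529 TPM, and OVOL1 at 0.0390 and 0.0670 TPM. CLDN4, CLDN7 and DSP were thus present while GRHL2, ESRP1 and OVOL1 were not. In all, 14 of 21 members were detected (66.7%), near the 61.0% of all protein-coding genes.

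Of 24 mesenchymal genes 19 were detected (79.2%), beside 61.0% of all protein-coding genes. VIM, the intermediate filament vimentin, had 1386 and 1540 TPM. AXL, a receptor tyrosine kinase, had 783 and 917 TPM, and CD44, the hyaluronan receptor, had 276 and 312 TPM. S100A4 differed between replicates, at 900 and 2212 TPM. Of the transcription factors that repress CDH1, SNAI2 had 65.2 and 30.3 TPM, ZEB1 had 34.5 and 19.4 TPM and SNAI1 had 14.9 and 6.65 TPM. TWIST1 (0.148 and 0.571 TPM), PRRX1 (0.0547 and 0.0625 TPM) and THY1 (0.0761 and 0.0870 TPM) were under 1 TPM in both, and N-cadherin, CDH2, stood at 1.23 and 0.612 TPM. VIM and AXL were thus among the high genes of the cells, ZEB1 was mid-range, and N-cadherin and TWIST1 were low.

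**Figure D3:**
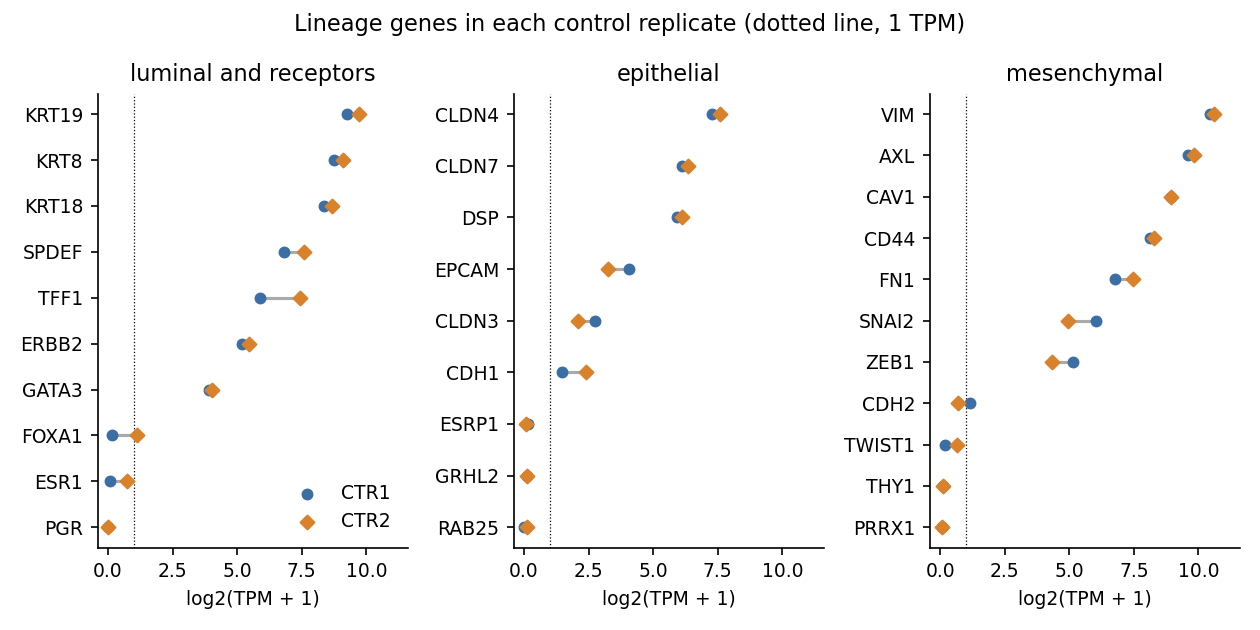
log2(TPM + 1) of lineage genes in CTR1 (circles) and CTR2 (diamonds), one row per gene, with the dotted line at 1 TPM. Keratins, CLDN4 and VIM sit far right of the line in both replicates, while PGR, GRHL2 and PRRX1 sit at its left.

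Surface and matrix genes were given by family. Integrins link cells to matrix, and 13 of 26 were detected, led by ITGB1 at 637 and 506 TPM and ITGA3 at 504 and 586 TPM. The leukocyte integrins ITGAL (0.0464 and 0.0597 TPM) and ITGAX (0 and 0.0182 TPM) were near silent. LAMB3, a laminin chain of the basement membrane, had 817 and 823 TPM, the closest pair among the high matrix genes named here. Collagen output was led by COL6A1 at 248 and 570 TPM and COL13A1 at 158 and 137 TPM, whereas the fibrillar COL1A1 had 8.30 and 6.65 TPM and COL3A1 had 0.405 and 0.103 TPM. Matrix proteolysis was represented by the membrane protease MMP14 at 751 and 873 TPM and by PLAU, the urokinase gene, at 807 and 583 TPM. The metalloprotease inhibitors TIMP1 and TIMP2 had 1022 and 2553 TPM and 282 and 431 TPM. The secreted gelatinases were low, with MMP2 at 0.152 and 0.0522 TPM and MMP9 at 0.836 and 4.19 TPM.

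Gene families showed one or a few dominant members. Among 18 S100 genes 12 were detected, and S100A6 was followed by S100A11 at 1822 and 2444 TPM, while S100B (0 and 0.0890 TPM) and S100A12 (no read) were at the floor. Among annexins, membrane-binding proteins, ANXA5 led at 1012 and 1126 TPM, and 10 of 13 were detected. Cytoplasmic actins exceeded muscle actins, with ACTA1 at 0.704 and 0.345 TPM and ACTC1 at 0.130 and 0.0278 TPM beside ACTB above. Among tropomyosins TPM4 led at 420 and 430 TPM over TPM3 at 312 and 310 TPM, and TPM1 had 21.7 and 19.6 TPM. MYH9, the nonmuscle myosin heavy chain, had 658 and 686 TPM against 20.7 and 19.3 TPM for MYH10.

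Receptor tyrosine kinases receive growth factor signals, and 31 of 58 were detected (53.4%). AXL led, EPHA2 followed at 421 and 692 TPM, and MET, the hepatocyte growth factor receptor, had 149 and 121 TPM. EGFR ligands were made in the same cultures, with HBEGF at 226 and 171 TPM and AREG at 135 and 89.7 TPM. The list also holds 10 of the 82 genes seen almost only in CTR2. Among these, FGFR2 had 0.0201 and 3.74 TPM, RET had 0.0226 and 3.67 TPM and FLT3 had 0 and 3.50 TPM. ALK, at 0.390 and 6.81 TPM, was also far higher in CTR2 but was not under 0.1 TPM in CTR1, so it is not one of the 82. Over the whole list 43 of 58 members were higher in CTR2, and these include the 10, which were picked for that difference. For the 44 members at a mean of 1 TPM or more the median log2 ratio was 0.44. Over all genes at that level it was -0.07, so more of them were lower than higher in CTR2.

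Below the receptors, the 11 RAS-MAPK genes listed were all detected. HRAS had 192 and 243 TPM and NRAS had 150 and 118 TPM. The ERK output genes were also all detected, 15 of 15. FOSL1, an AP-1 factor, had 994 and 894 TPM, PHLDA1 had 443 and 448 TPM, the ERK phosphatase DUSP6 had 126 and 133 TPM and SPRY4, a feedback inhibitor, had 146 and 157 TPM. Other members differed more between replicates, with IER3, the highest, at 2404 and 1366 TPM and MYC at 356 and 220 TPM, and EGR1 is given with the replicate differences below.

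Of the 34 cytokine genes listed 30 were detected (88.2%), beside 61.0% of all protein-coding genes. IL6 had 1239 and 446 TPM and CXCL8, the neutrophil chemokine, 951 and 335 TPM. CSF2 had 610 and 362 TPM, whereas CSF1, the macrophage growth factor, had 345 and 533 TPM. CXCL12 and IL33 had no read in either library. The receptor side was uneven, since IL6ST, the shared signalling receptor, had 263 and 103 TPM and IL6R, the ligand-specific chain, 2.74 and 1.49 TPM.

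Proliferation genes were on throughout. All 29 DNA replication genes were detected, among them TOP2A at 386 and 279 TPM, PCNA at 279 and 292 TPM and MKI67 at 173 and 147 TPM. Of the cyclins 17 of 18 were detected, led by CCND1 and by CCNB1 at 354 and 377 TPM, and CCND2 had 0.798 and 1.64 TPM. RB1, which restrains entry into the cell cycle, had 54.5 and 39.6 TPM. Energy metabolism used the widely expressed isoforms, with ENO1 at 2044 and 2330 TPM, PKM at 1067 and 1520 TPM and LDHA at 767 and 1022 TPM. The testis enzyme PGK2 and the islet glucose transporter SLC2A2 had no read, and the liver kinase PKLR had 0 and 0.0492 TPM.

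One stretch of chromosome 9 was silent in CTR1 and nearly so in CTR2. In 9p21, CTR1 had no read on 34 neighbouring genes of the table, 24 of them protein-coding, over 3.59 Mb from HACD4 to ENSG00000269957 (chr9:20999514-24591991, GRCh37). The stretch holds type I interferon genes, MTAP, an enzyme of methionine salvage, and the cell cycle inhibitor genes CDKN2A and CDKN2B. IFNK, a type I interferon gene outside the stretch on its right, also had no read in either library. In CTR2 the same genes had no read except 2, CDKN2A with 71 counts (1.06 TPM) and CDKN2B with 22 counts (0.349 TPM), and CDKN2A is one of the 82 genes seen almost only in CTR2. MTAP, active in most tissues, was at 0 in both. On the left the neighbours FOCAD-AS1 (1.24 and 0.152 TPM, from 7 and 1 counts) and FOCAD (1.62 and 0.944 TPM) were low, and MLLT3 beyond them had 9.93 and 8.50 TPM. TUSC1 had 29.6 and 35.1 TPM on the right and PLAA had 64.4 and 55.0 TPM beyond it. Read counts do not show whether the DNA is present, which was not tested.

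**Figure D4:**
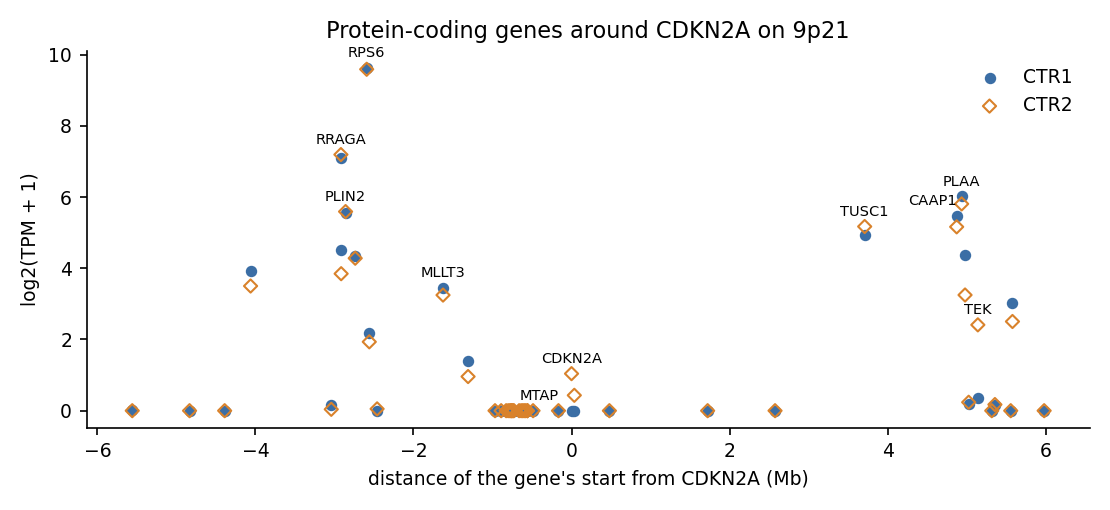
Protein-coding genes within 6 Mb of CDKN2A, placed by the distance of their start from CDKN2A in Mb (horizontal axis), with log2(TPM + 1) in CTR1 (circles) and CTR2 (open diamonds). A block of genes at 0 around CDKN2A lies between MLLT3 and TUSC1, which are detected in both replicates, with FOCAD at a low level between MLLT3 and the block and with CDKN2A above 0 in CTR2.

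Other runs of at least 10 neighbouring protein-coding genes without a read were, by length, mainly families of restricted expression. The longest held 46 genes, from FOLH1 to OR5AK2 on chromosome 11, and consisted largely of olfactory receptors. Runs of the PRAMEF family (23 genes, chromosome 1) and of the KRTAP hair genes on chromosome 21 (18 genes) had the same property. The protein-coding run from HACD4 to MTAP held 19 genes, mostly interferon genes together with MTAP and KLHL9, genes of wide expression.

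The HOX genes, which give position along the body axis, differed by cluster. Of the HOXA cluster 0 of 11 members were detected, and its highest member, HOXA13, had 0.975 and 0.963 TPM. In the HOXB cluster 5 of 10 were detected, led by HOXB9 at 32.1 and 28.0 TPM. HOXC6 led its cluster at 3.93 and 2.64 TPM, and HOXD1 led its own at 14.6 and 13.8 TPM, with 3 of 9 and 2 of 9 members detected. HOXB9 and HOXD1 therefore stood alone above 10 TPM among the 39 HOX genes listed.

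Cancer-testis genes are normally restricted to the germ line. Of 31 listed, 6 were detected and 16 had no read in either library. PAGE5 had 106 and 80.0 TPM, CT83 had 93.4 and 82.0 TPM and SSX1 had 16.4 and 10.5 TPM. PRAME, MAGEA4 and CTAG1B had no read. PAGE5 and CT83 stood well above the rest in both replicates.

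Markers of other lineages were mostly low but not uniformly so. Leukocyte markers gave 5 of 12 detected, with CD68, a lysosomal protein also present outside macrophages, at 431 and 414 TPM and PTPRC, the pan-leukocyte marker, at 0.332 and 0.185 TPM. Among endothelial markers ESAM, an adhesion molecule, had 222 and 276 TPM while CDH5 had 0.0755 and 0.0647 TPM. SERPINA1, an abundant liver product, had 45.4 and 82.6 TPM and ALB had 0.311 and 0.0573 TPM. MITF had 20.3 and 18.2 TPM while TYR, an enzyme of pigment synthesis, had no read. Muscle markers gave 0 of 7. Of the genes associated with the kidney line in which the lentivirus was packaged, 2 of 7 were detected, and the highest had a mean of 47.5 TPM. LIN28B, with 0.0250 and 0 TPM, and PAX2, with 0 and 0.0206 TPM, were among the 4 under 0.1 TPM in both. Whether any reads came from that line was not tested.

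Interferon-related genes were high while the type I interferon genes of 9p21 gave no read. All 25 interferon-stimulated genes listed were detected, beside 61.0% of all protein-coding genes. Their medians were 117 TPM in CTR1 and 204 TPM in CTR2. IFIT3, an antiviral effector, had 2036 and 1451 TPM, and the related IFIT2 had 967 and 494 TPM. In the other direction IFITM3, which blocks viral entry, had 905 and 1817 TPM and IFI6 had 244 and 1062 TPM. RIGI, the cytosolic RNA sensor, had 344 and 444 TPM. IRF9, a factor that drives these genes, was listed at 2.52 and 1.27 TPM, and 48.4% of its exon bases are shared with another gene of the table.

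To show what the members share in sequence, bases upstream of the RefSeq start (GRCh38.p14) are printed for IFIT1 and IFIT3, which were lower in CTR2, and for IFI6, IFITM1, IFITM3 and IFI27, which were higher there. Capitals mark the core of the interferon-stimulated response element, searched on both strands as GAAA, any 2 bases and GAAA again, where overlapping matches run together. Coordinates run as follows, on the strand of the gene: chr10:89392473-89392622 plus strand for IFIT1, chr10:89327797-89327996 plus for IFIT3, chr1:27672193-27672392 minus for IFI6, chr11:313940-314039 plus for IFITM1, chr11:320861-320960 minus for IFITM3 and chr14:94110586-94110735 plus for IFI27.
IFIT1: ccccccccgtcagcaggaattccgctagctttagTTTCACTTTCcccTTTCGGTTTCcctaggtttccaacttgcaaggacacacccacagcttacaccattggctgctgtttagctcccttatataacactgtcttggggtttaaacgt
IFIT3: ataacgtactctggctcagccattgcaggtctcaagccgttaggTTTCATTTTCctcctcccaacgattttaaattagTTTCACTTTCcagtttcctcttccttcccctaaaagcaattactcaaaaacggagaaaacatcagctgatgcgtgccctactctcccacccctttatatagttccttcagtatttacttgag
IFI6: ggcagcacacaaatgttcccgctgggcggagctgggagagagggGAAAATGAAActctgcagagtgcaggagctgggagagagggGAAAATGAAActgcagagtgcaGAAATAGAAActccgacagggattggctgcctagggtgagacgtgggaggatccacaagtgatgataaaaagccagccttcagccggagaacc
IFITM1: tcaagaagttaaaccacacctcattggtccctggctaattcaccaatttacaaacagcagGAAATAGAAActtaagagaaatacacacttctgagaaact
IFITM3: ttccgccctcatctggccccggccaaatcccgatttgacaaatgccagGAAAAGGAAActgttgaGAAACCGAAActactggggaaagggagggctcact
IFI27: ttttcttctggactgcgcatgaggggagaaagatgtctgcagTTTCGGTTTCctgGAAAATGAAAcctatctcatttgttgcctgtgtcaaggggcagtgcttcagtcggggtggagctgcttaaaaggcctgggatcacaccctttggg
The core occurs in the 250 upstream bases of 415 of 15136 protein-coding promoters (2.74%). It occurs in 12 of the 18 listed interferon-stimulated genes with a RefSeq entry, but 7 of the 25 had none, so under 80% were covered and no share is read for the list. The windows printed were chosen because they hold it, and it was not found in those of OAS1 and MX1. A match describes the letters only.

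The MHC genes, which present antigens, lay mostly higher in CTR2. All 19 class I pathway genes were detected, and 17 of them were higher in CTR2. Their median log2 ratio was 0.62, against -0.07 over all genes at a mean of 1 TPM or more. More of all these genes were thus lower than higher in CTR2, and the exact share is not given here. With the exon GC trend described below removed it was 0.54. HLA-B had 790 and 2349 TPM and B2M, the shared light chain, 670 and 931 TPM. Class II genes were present at lower levels, with CD74, the invariant chain, at 296 and 657 TPM and HLA-DRA at 49.8 and 146 TPM. Of the interferon-stimulated genes 19 of 25 were higher in CTR2, with a median log2 ratio of 0.54. HLA genes share sequence with one another, and reads may have been split between them.

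Across all 13296 genes at a mean of 1 TPM or more, levels of the replicates correlated with a Pearson r of 0.972 and a Spearman rho of 0.974 on log2(TPM + 1), as a description across genes, which are not independent. The SD of the log2 ratio was 0.49, and 94.8% of the genes lay within 2-fold. Beyond 4-fold there were 42 genes higher in CTR1 and 32 higher in CTR2. The common biological coefficient of variation by edgeR was 26.7%. Counts of 76.5% of these genes fell outside the 95% binomial range that the library totals set.

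The 8 genes farthest higher in CTR1, at a mean of 10 TPM or more, were FOSB, FOS, HES1, EGR1, ATF3, CXCL2, ZFP36 and DUSP1. Most are immediate-early genes, which respond within minutes to growth factors or stress. FOSB had 157 TPM in CTR1 and 1.4 TPM in CTR2, and FOS had 227 and 3.58 TPM. EGR1, a zinc-finger factor, had 580 and 47.5 TPM and DUSP1, a MAPK phosphatase, had 1249 and 152 TPM. HES1, a Notch target, had 486 and 31.1 TPM. Their log2 ratios ran from -6.04 for FOSB to -3.04 for DUSP1. The AP-1 factors as a list had a median log2 ratio of -0.70, and only FOSL2 at 312 and 376 TPM and JUND at 413 and 435 TPM were higher in CTR2.

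EGR1 is shown as the member of these 8 whose 250 upstream bases hold the CArG box, the element bound by serum response factor. The window is chr5:138465329-138465478 on the plus strand (RefSeq, GRCh38.p14), and capitals mark the matches, of which there are 2.
EGR1: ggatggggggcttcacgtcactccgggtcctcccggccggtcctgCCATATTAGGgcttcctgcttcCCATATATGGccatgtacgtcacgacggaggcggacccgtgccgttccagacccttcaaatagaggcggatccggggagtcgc
The CArG box, searched as its palindromic consensus, occurs in 1.16% of the 15136 promoters. It was not found in the same window of the other 7 genes, which says nothing of sites elsewhere.

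At the same mean of 10 TPM or more, the 8 genes farthest higher in CTR2 were CST1, MUC5AC, PI16, CST4, CST2, OAS1, IFI6 and IFITM1. CST1, CST2 and CST4 encode salivary-type cystatins, which inhibit cysteine proteases, and they are close in sequence. CST1 had 299.7 TPM in CTR1 and 1576 TPM in CTR2, CST4 had 182 and 874 TPM and CST2 had 195 and 880 TPM. MUC5AC, a gel-forming mucin, had 57.4 and 282 TPM. OAS1, an antiviral enzyme, had 32.3 and 146 TPM, and IFITM1 had 99.6 and 423 TPM, with 32.5% of its exon bases shared with another gene. Log2 ratios ran from 2.08 for IFITM1 to 2.39 for CST1, nearer to 0 than those of FOS and FOSB on the other side.

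The base composition of a gene moved with its replicate ratio. In the decile of genes with the lowest exon GC (24.6% to 38.9%) the median log2 ratio was -0.49, and in the decile with the highest (61.4% to 73.8%) it was 0.18. It was higher in each next decile. Spearman's rho of the ratio with GC was 0.49 across genes and with gene length -0.11, as a description. Removing the trend left the SD of the ratio at 0.45. FOS kept a log2 ratio of -5.69 and CST1 one of 2.27 after the trend was removed. The median of the interferon-stimulated genes went from 0.54 to 0.72, and that of the mitochondrial-encoded genes from -0.55 to -0.36. The source of the trend was not tested.

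**Figure D5:**
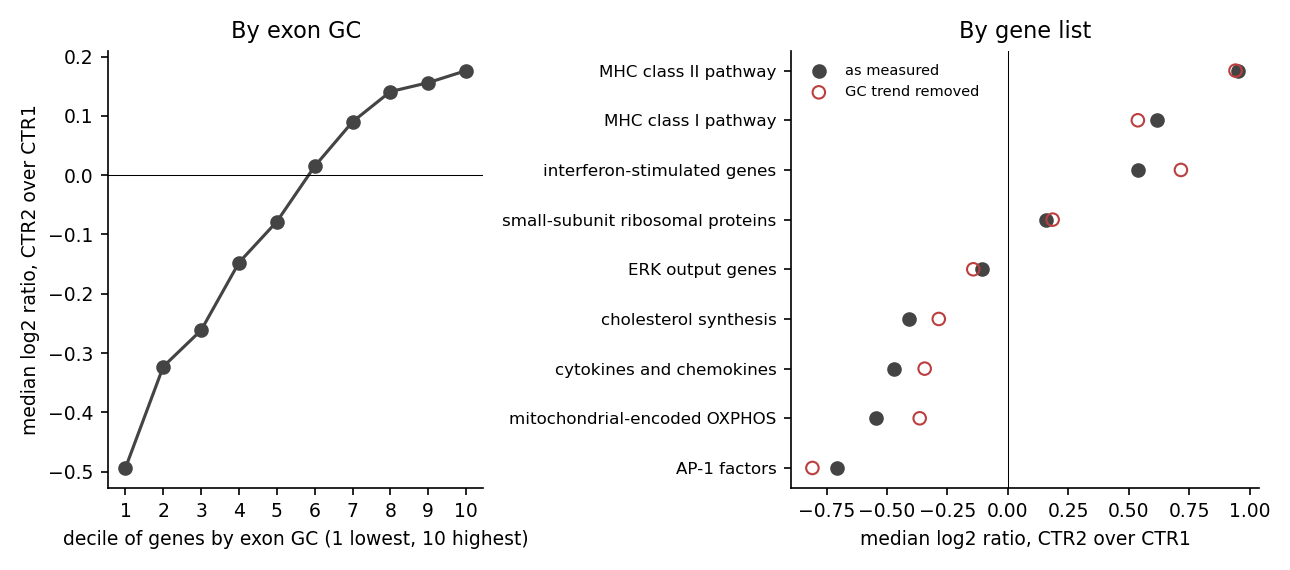
Median log2 ratio of CTR2 over CTR1, from log2(TPM + 1), by decile of genes by exon GC (left) and by gene list for members at a mean of 1 TPM or more (right, filled as measured and open with the GC trend removed). The line on the left climbs from -0.49 to 0.18. The lists on the right are a selection, and each of them stays on its side of 0. Some lists not shown changed sign, such as the cyclins (-0.10 to 0.08) and the chromosome 9p21 genes (-0.22 to 0.08).

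Subunits of stable complexes give a check on the levels, since their proteins are made in equal numbers. The 32 small-subunit ribosomal proteins had a median of 629 TPM, yet RPS10 had 12.5 and 11.5 TPM and RPS15A had 27.2 and 30.5 TPM. The lowest member of that list had a mean of 0.308 TPM. In the large subunit RPL17 (8.53 and 8.13 TPM), RPL36A (6.6 and 2.15 TPM) and RPL26 (50.6 and 45 TPM) lay under 10% of the median. EEF1G, an elongation factor subunit, had no read in either library. Across ribosomal, proteasomal and nuclear respiratory lists the 11 members under 10% of the list's median all share exon bases with another gene of the table, for example 3.26% for RPS15A and 33.5% for NDUFA7, and EEF1G shares 99.9%. Among the other members of the 4 lists 58 of 175 share bases. A low level of such a gene cannot be told from reads left uncounted because they fit more than one gene.

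Promoter composition was compared for the 3 highest level classes, in which at least 80% of protein-coding genes outside the mitochondrial genome had a RefSeq promoter. Lower classes had fewer, so that comparison is void for them. A CpG ratio (observed over expected) of 0.6 or more was found in 84.4% of 5857 promoters at 10 to 100 TPM, 86.7% of 1454 at 100 to 1000 TPM and 86.8% of 68 at 1000 TPM or more. TATAAA lay 45 to 16 bases before the start in 1.14%, 3.16% and 11.8% of these, and the last share rests on 8 promoters. It was found in 3.68% of all 15136, which include the lower classes. Among genes with 0 counts in both it was found in 9.3% of promoters, at 68.7% coverage. No rise with level across all genes is therefore read.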

How the data were processed

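RNA-seq was performed on total RNA of MDA-MB-231 cells, and the 2 sh-TRC libraries were used, grouped by their labels. The authors deposited raw counts per gene with gene lengths. Per the methods and the submitters' processing notes, reads were mapped to GRCh37 with STAR (version 2.5.2a in the notes, another in the methods) and counted over exons with FeatureCounts and a GENCODE annotation. Strandedness and the handling of multi-mapping reads are not given in the sources used here, so overlapping, antisense and paralogous genes are uncertain. Counts were divided by the deposited length and scaled to TPM. Of 27745 gene IDs 26966 matched GENCODE v44lift37, the source of symbols, types and coordinates, and 779 did not.

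A gene was detected at 1 TPM or more in both replicates. Replicate ratios were log2 of (TPM + 1) for genes at a mean of 1 TPM or more. No test was run, since one group of 2 was described. The dispersion came from edgeR 4.0.16 (R 4.3.3), tested on simulated counts, and size factors for alternatives from TMM and DESeq2 1.42.0. Python 3.11.15 with pandas 2.3.3 was used otherwise. Named genes were the 25 highest protein-coding genes, the mitochondrial-encoded genes, the highest lncRNAs, the highest and lowest members of each list, the genes the study followed and the 8 genes farthest apart between replicates in each direction; within these rules the text gives a selection, and some genes they select are not reported here. The genes seen in only 1 replicate and the runs of silent genes were chosen after the values were seen. The members and gene lists were chosen with earlier results of these data known. Promoters were the 250 bases upstream of RefSeq starts (GRCh38.p14), found for 15136 of 19582 protein-coding genes (77.3%), and their coordinates are not comparable with the GRCh37 ones. The alternatives tried were other thresholds, scalings, lengths, pseudocounts and filters, and leaving out either replicate.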

Additional observations from a re-analysis of the deposited data

How the results depend on the processing

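The number of genes at 1 TPM or more in both replicates, 12695, was between 10256 (5 TPM) and 15364 (5 counts in both) under every alternative, within 1.5 times. With 1 replicate alone it was 13042 to 13391. The number of genes without a read, 7861, was 9798 when up to 2 counts were allowed and 8954 to 9346 with 1 replicate. The share of TPM in the 100 highest genes, 30.1%, was 34.5% when each length was reduced to the start positions open to a fragment of 200 bases, 21.5% without the mitochondrial-encoded genes and 16.8% as a share of counts, and 29.7% to 30.6% with 1 replicate. The SD of the log2 replicate ratio, 0.49, was 0.67 with a pseudocount of 0.1 TPM, 0.45 over all genes with a read and 0.44 from a mean of 10 TPM. Chosen after seeing the data, removal of the GC trend gave 0.45 and removal of the genes seen in 1 replicate gave 0.48. TMM and DESeq2 size factors left it at 0.50. The 25 highest protein-coding genes were the same 25 without the mitochondrial-encoded genes in the scaling, shared 23 of 25 with shorter lengths, and shared 22 with either replicate alone. The levels themselves were less stable than this order. Without the mitochondrial-encoded genes in the scaling, 697 of 1216 gene levels and 33 of 70 list medians were counted as unchanged. With shorter lengths 935 of 1216 and 49 of 70 were. No paired analysis was possible because only 1 group was described and no test was run. On a gene of median length 3 counts were 0.0757 TPM in CTR1, so lower levels rest on fewer reads.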

Other observations

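Several gene groups were not described above. Of 17 reference genes used for qPCR all were detected, and their levels spread from ACTB at 4985 and 6601 TPM to TBP at 25.8 and 31.6 TPM. Of these 13 were higher in CTR2, with a median log2 ratio of 0.22 against -0.07 over all genes at a mean of 1 TPM or more, and GAPDH had 0.30.

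The 17 cholesterol synthesis genes were all detected, and 4 of them were higher in CTR2. Their median log2 ratio was -0.41, against -0.07 over all genes at a mean of 1 TPM or more. INSIG1, which holds SREBP in the endoplasmic reticulum, had 185 and 76.5 TPM and HMGCS1, an early enzyme of the pathway, 56.7 and 22.6 TPM. Among metallothioneins MT2A, a metal-binding protein, had 1603 and 1699 TPM and MT1E had 335 and 304 TPM, while MT4 had no read. Among genes targeted by antibodies or drugs F3, tissue factor, led at 709 and 603 TPM, CD274, which encodes PD-L1, had 44.3 and 31.6 TPM, and VTCN1 had no read. BCL2L1, an inhibitor of apoptosis, had 895 and 1066 TPM against 2.17 and 2.42 TPM for BCL2.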
